A study of Homo sapiens with 6 samples.

Results

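The comparison described here is between A673 cells treated with 200 nM THZ1 and A673 cells treated with 50 nM THZ1, each for 6 h. A673 is an established human Ewing sarcoma cell line that carries the EWS-FLI1 fusion, and THZ1 is a covalent inhibitor of the kinase CDK7. The members are the genes whose deposited expression value was above 1 FPKM (fragments mapped per unit of transcript length and of library size) in either of these libraries, which were 10745 of the 27420 genes listed. The series holds 6 RNA-seq libraries, with DMSO (the vehicle), 50 nM THZ1 and 200 nM THZ1 in A673 and in a second established Ewing sarcoma line, SKNMC, and 1 library per condition. Both lines were grown in the same serum-containing medium and were labelled as total RNA, and the labels name no other manipulation. With 1 library a side there was no replicate error to set a difference against, no test was possible, and every value below describes these libraries. A gene is called lower or higher when its log2((FPKM + 1) / (FPKM + 1)) ratio passed 2-fold, and the added 1 understates the change of weakly expressed genes.

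CDK7 is the kinase of the general transcription factor TFIIH. It phosphorylates the C-terminal domain of RNA polymerase II around initiation and promoter escape, and it activates the downstream transcription kinases, including the P-TEFb kinase CDK9. When transcription is inhibited for a few hours, messages with rapid turnover are lost early while long-lived messages persist, and in values scaled to library size the long-lived messages then take a larger share of the library. In the study the doses were chosen for weaker and stronger loss of polymerase phosphorylation, and the comparison asks which transcripts were low only at the high dose and which were no lower there or came back.

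The libraries carried the expression of the labelled cell type. All 8 Ewing sarcoma markers examined were above 1 FPKM in the DMSO library, among them CD99 at 504 FPKM, and the 12 listed leukocyte, epithelial, endothelial and skeletal muscle markers summed to at most 0.19 FPKM per class in each of the A673 libraries. CD99, the surface antigen used in diagnosis, was at 646 FPKM at 50 nM and 763 FPKM at 200 nM. The sum of all listed FPKM at 200 nM was 102% of that at 50 nM. The sequencing depth is unknown, and no single recurring ratio stood out among the low values that could have given the relative depth. The members nearest to the threshold were ZKSCAN2, with a higher value of 1.00064 FPKM, and, just outside, MBLAC1, with 0.999904 FPKM.

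At the high dose a minority of transcripts were lower than at the low dose and few were higher. FPKM is scaled to library size, so a change in the total amount of RNA would not show in these counts and ratios. Of the 10745 members, 830 were at least 2-fold lower at 200 nM than at 50 nM, which is 7.72%, and 29 were at least 2-fold higher, which is 0.270%. The median log2 ratio was -0.01, the lower quartile -0.43 and the upper quartile 0.23, so the distribution was centred near no change with a long lower tail. In all, 8446 members, 78.6%, stayed within 1.5-fold, and 36 were at least 4-fold lower. At 1.5-fold, 1993 genes (18.5%) were lower and 306 (2.85%) higher.

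Genes moved along distinct paths over the dose series. Of the 830 lower genes, 348 lay at 50 nM within a factor of 5/4 of their DMSO level, 235 lay below that range but by less than 2-fold, 87 were already at least 2-fold below DMSO, and 160 lay above that range. At 200 nM, 647 of the 830 were at least 2-fold below DMSO. The 293 genes said here to need the high dose lay within a factor of 5/4 of DMSO at 50 nM and at least 2-fold below both DMSO and the 50 nM library at 200 nM. They were 2.73% of the members, and their median level was 14.4 FPKM with DMSO, 13.5 FPKM at 50 nM and 4.32 FPKM at 200 nM. These classes compare 3 libraries in pairs that share libraries, so a deviation of the 50 nM library alone would move both steps in opposite directions, and the part of such a deviation in the classes was not tested.

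**Figure D1:**
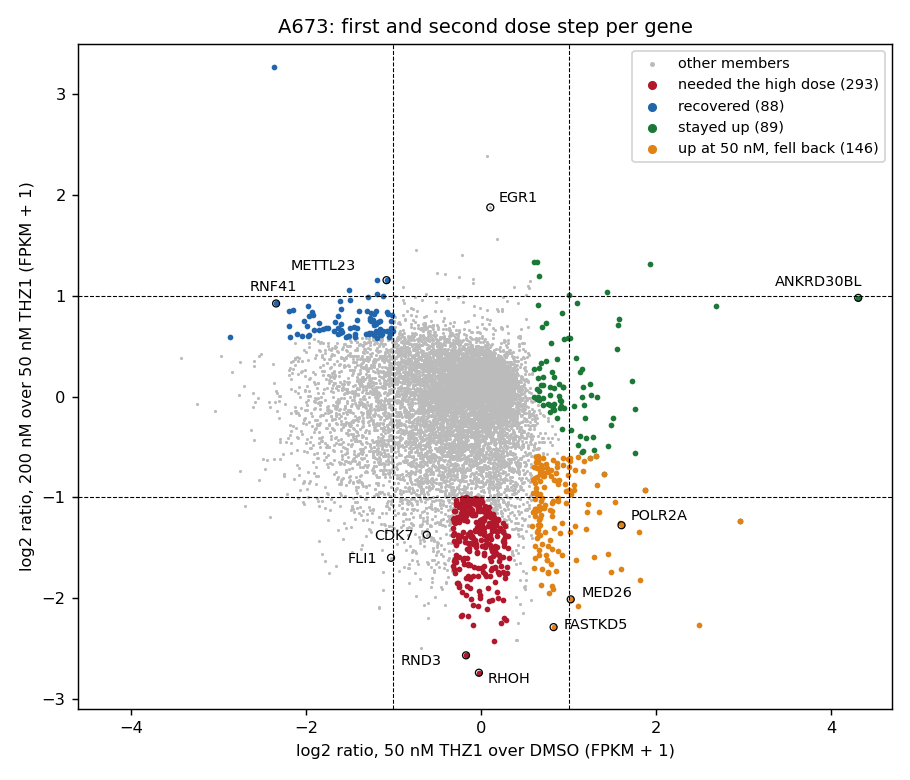
Each point is 1 of the 10745 member genes, with the log2 ratio of 50 nM THZ1 over DMSO on the x axis and of 200 nM over 50 nM THZ1 on the y axis, both in A673 with 1 added to FPKM; dashed lines mark 2-fold. The 293 genes that needed the high dose lie below the lower line near 0 on the x axis, the 88 recovered genes lie at the upper left, and ANKRD30BL lies farthest to the right with 0.98 on the y axis.

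RHOH, a small GTPase-like protein that lacks GTPase activity, had the lowest ratio of all members. Its levels were 31.8 FPKM with DMSO, 31.3 FPKM at 50 nM and 3.82 FPKM at 200 nM, a log2 ratio of -2.74 between the doses, and in SKNMC it was 19.3 FPKM at 50 nM and 2.49 FPKM at 200 nM. It lies at chr4:40192672-40248587 (hg19, plus strand). The low dose had thus left RHOH at its vehicle level in A673, and the high dose library held it 6.69-fold lower than the low dose on the FPKM + 1 scale. RND3, an atypical small GTPase that opposes RHOA signalling (chr2:151324708-151395525, hg19), followed the same course with 20.6, 18.1 and 2.23 FPKM and a ratio of -2.57. NET1, an exchange factor for RHOA, was at 30.9, 36.4 and 6.86 FPKM. NET1 was thus above its vehicle level at the low dose and below it at the high dose.

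The other large decreases included proteins of cell division and ubiquitin ligases. FBXO5, which inhibits the anaphase-promoting complex, was at 37.9 FPKM with DMSO, 23.1 FPKM at 50 nM and 3.27 FPKM at 200 nM, a ratio of -2.50. CDCA2, a phosphatase-targeting subunit of mitotic exit, was at 17.1, 19.1 and 2.73 FPKM in the same order, a ratio of -2.43. FAM83D, a spindle protein, was at 38.9, 51.5 and 8.80 FPKM, a ratio of -2.42. FBXO5 was the only one of these 3 that stood clearly below its vehicle level at the low dose. SIAH1, an E3 ubiquitin ligase, was at 17.8, 24.03 and 3.67 FPKM, a ratio of -2.42, and overlaps LONP2 on the other strand. RNF139, an E3 ligase of the endoplasmic reticulum, was at 22.1, 26.7 and 5.04 FPKM, a ratio of -2.20. Both ligases were above their DMSO level at 50 nM by less than 1.5-fold and well below it at 200 nM.

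CDR2, known as an autoantigen of paraneoplastic cerebellar degeneration, was at 26.9 FPKM with DMSO, 25.2 FPKM at 50 nM and 4.41 FPKM at 200 nM, a ratio of -2.27. BAG4, a co-chaperone that silences death domains, was at 13.0, 16.1 and 2.66 FPKM, a ratio of -2.22, and overlaps LSM1 on the other strand. CCDC12, a protein found with the spliceosome, was at 13.5, 11.4 and 1.74 FPKM, a ratio of -2.17, and overlaps NBEAL2. With RHOH, RND3, CDCA2, NET1 and RNF139 these were the 8 genes with the largest decreases among the 210 of the 293 that exceeded 10 FPKM in A673, and all 8 were also lower at 200 nM than at 50 nM in SKNMC, by log2 ratios from -2.54 (RHOH) to -1.51 (CCDC12). Whether the counting used strand was not stated in the sources used here, so reads of overlapping genes may not have been told apart.

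Another group went up at the low dose and came back down at the high dose. There were 146 such genes, 1.36% of members, at least 1.5-fold above DMSO at 50 nM and at least 1.5-fold lower at 200 nM than at 50 nM. Their median level was 7.18 FPKM with DMSO, 13.8 FPKM at 50 nM and 5.61 FPKM at 200 nM, and 94 of the 146 ended below DMSO, 7 of them by at least 2-fold. The count was 264 with libraries scaled to the 75th percentile of member values and 76 with ribosomal protein genes held level. Proteins that touch RNA polymerase II and RNA stood among the 8 with the largest second step. MED26, the Mediator subunit that recruits elongation factors, was at 4.95, 11.1 and 1.999 FPKM, a ratio of -2.01. RPRD2, a protein that binds the polymerase's C-terminal domain, was at 10.9, 20.2 and 4.65 FPKM, a ratio of -1.91. SCAF8, which also binds that domain, was at 14.7, 26.4 and 6.45 FPKM, a ratio of -1.88. All 3 were at least 1.5-fold up at the low dose and below their vehicle level at the high dose. TNRC6B, a scaffold of microRNA silencing, was at 5.44, 12.9 and 2.27 FPKM, and FASTKD5, a mitochondrial RNA processing factor, was at 11.6, 21.4 and 3.57 FPKM. SHQ1, an assembly factor of box H/ACA ribonucleoproteins, was at 7.20, 13.0 and 3.19 FPKM. ABTB2 and LUZP1 followed with ratios of -1.87 and -1.75. FASTKD5, MED26 and SCAF8 overlap other listed genes on the same strand.

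Genes that were low already at 50 nM mostly stayed within 1.5-fold between the doses, as did most of all members. There were 1501 members (14.0%) at least 2-fold below DMSO at 50 nM, with a median of 13.3 FPKM with DMSO and 4.11 FPKM at 50 nM. At 200 nM 1126 of the 1501 were within 1.5-fold of the 50 nM library, as 78.6% of all members were. There were 87 at least 2-fold lower again, against 7.72% of all members, and 88 at least 1.5-fold higher, against 2.85%. The median ratio of the 1501 between the doses was -0.09 against -0.01 over all members, and their median at 200 nM was 3.62 FPKM. Of the 2486 members at least 2-fold below DMSO at 200 nM, 1205 were so already at 50 nM, and 647 lost at least 2-fold between the doses. A further 648 genes above 1 FPKM with DMSO were at or below 1 FPKM at both doses and so are not members. A low value at 50 nM bounds how far a gene can still be seen to drop when 1 is added.

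The 88 recovered genes, 0.819% of the members, had a median of 11.3 FPKM with DMSO, 3.39 FPKM at 50 nM and 6.18 FPKM at 200 nM. Of these, 40 were back within 1.5-fold of DMSO, while 24 were still at least 2-fold below it. The count was 260 at a pseudocount of 0.1 and 54 with ribosomal protein genes held level. METTL23, a protein arginine methyltransferase (chr17:74722911-74730018, hg19), was at 21.8 FPKM with DMSO, 9.80 FPKM at 50 nM and 23.1 FPKM at 200 nM, a ratio of 1.16. TMEM194A, a protein of the nuclear envelope, was at 22.2, 9.69 and 20.3 FPKM, and RAB5B, a GTPase of early endosomes, was at 20.04, 7.57 and 16.1 FPKM. These 3 genes returned to near their vehicle level. SLC29A2, a nucleoside transporter, was at 21.9, 6.49 and 13.4 FPKM, and BCL2L2, an anti-apoptotic BCL2 relative, was at 14.6, 4.51 and 9.71 FPKM. RNF41, an E3 ligase, was at 33.2, 5.76 and 11.8 FPKM. PPP1R10, a nuclear targeting subunit of protein phosphatase 1, was at 17.2, 3.10 and 6.45 FPKM. These 4 stood between their low dose and vehicle levels. METTL23 and BCL2L2 overlap other listed genes on the same strand.

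**Figure D2:**
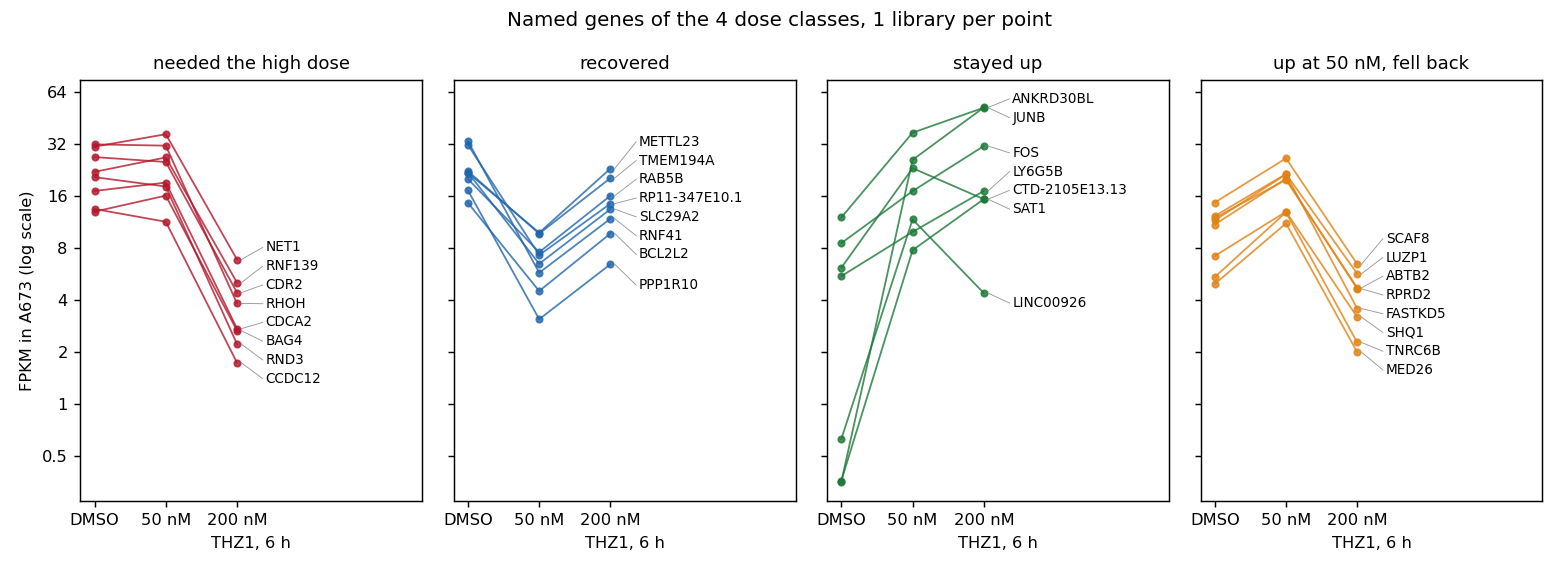
FPKM on a log scale in the DMSO, 50 nM and 200 nM libraries of A673 for the named genes of the 4 dose classes; each point is 1 library and lines join the values of 1 gene. In the panel of genes that needed the high dose the 8 lines run level from DMSO to 50 nM and end between 1.74 FPKM (CCDC12) and 6.86 FPKM (NET1), while the recovered genes form a V.

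Few genes were much higher at the high dose. Of the members 2 were at least 4-fold higher, PIGY at 4.32, 0.0303 and 8.92 FPKM and DNAJC25-GNG10 at 0.374, 0.435 and 6.53 FPKM, and both share their span with other listed genes on the same strand. EGR1, an immediate early zinc finger transcription factor (chr5:137801178-137805004, hg19), was at 12.7 FPKM with DMSO, 13.8 FPKM at 50 nM and 53.4 FPKM at 200 nM, a ratio of 1.88. The SKNMC libraries had 2.38 FPKM with DMSO, 0.484 FPKM at 50 nM and 1.13 FPKM at 200 nM. EGR1 thus stood near its vehicle level at the low dose in A673 and 3.68-fold above the low dose at the high one, whereas in SKNMC it was weakly expressed and below its vehicle level at both doses. MALAT1, an abundant nuclear noncoding RNA, was at 10.1, 8.38 and 20.3 FPKM, a ratio of 1.18, and in SKNMC at 15.5 FPKM at 50 nM and 43.6 FPKM at 200 nM. LETMD1, a mitochondrial membrane protein, was at 25.5, 13.4 and 26.5 FPKM, and MSH5, a meiotic relative of the mismatch repair proteins, at 9.25, 5.44 and 11.6 FPKM. MSH5 overlaps MSH5-SAPCD1 and SAPCD1 on the same strand. Of the 29 genes at least 2-fold higher only 3 exceeded 10 FPKM at either dose, namely EGR1, MALAT1 and METTL23, and the median of their higher value was 3.76 FPKM. Of the 29, 15 were above 1 FPKM only at 200 nM and so became members through the library in which they were high, and counts over the 29 are given as a description. Spans of 10 of the 29 (34.5%) overlapped another listed gene on the same strand, against 12.6% of the members, and 7 of the 29 were clustered histone genes and 6 were lincRNA genes.

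A set of 89 genes, 0.828% of the members, stayed at least 1.5-fold above DMSO at both doses. Their median was 0.487 FPKM with DMSO, 2.27 FPKM at 50 nM and 3.04 FPKM at 200 nM, so most of them were expressed weakly, and 26 passed 10 FPKM in some library. Most were below 1 FPKM with DMSO and so became members only through the THZ1 libraries, in which they were high. Counts over the 89 are given as a description. The count depended on the processing, with 190 genes at a pseudocount of 0.1, 384 with libraries scaled to the 75th percentile of member values and 49 with ribosomal protein genes held level. Between the doses 47 of the 89 had a ratio above 0. The AP-1 subunits JUNB and FOS, which are immediate early transcription factors, were prominent among the stronger ones. JUNB was at 12.02, 37.2 and 51.9 FPKM, and in SKNMC at 81.9 FPKM at 50 nM and 134.6 FPKM at 200 nM. FOS was at 8.54, 17.1 and 31.1 FPKM, a ratio of 0.83. Both were higher at each dose step in these A673 libraries. SAT1, the rate-limiting enzyme of polyamine breakdown, was at 6.16, 23.2 and 15.3 FPKM, a ratio of -0.57, and in SKNMC it was also lower at 200 nM, at 37.5 FPKM against 52.5 FPKM. SAT1 thus stayed above its vehicle level while losing part of its gain. ANKRD30BL was at 0.356, 25.9 and 52.0 FPKM, the largest gain over DMSO among the genes above 10 FPKM, and in SKNMC it was at 26.0 FPKM at 50 nM and 60.9 FPKM at 200 nM. The noncoding CTD-2105E13.13, which overlaps RPL28 on the other strand, was at 0.362, 7.77 and 15.4 FPKM. LY6G5B was at 5.50, 9.92 and 17.1 FPKM and overlaps CSNK2B on the same strand. The noncoding LINC00926 was at 0.629, 11.7 and 4.39 FPKM and so met the rules for both staying up and falling back.

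The transcription machinery itself answered the second dose step unevenly. CDK7, the target of THZ1, was at 41.1 FPKM with DMSO, 26.4 FPKM at 50 nM and 9.57 FPKM at 200 nM, a ratio of -1.37. It was the only 1 of the 10 CDK7 and TFIIH genes (10% against 7.72% of all members) at least 2-fold lower. The median of the 10 was 0.13. GTF2H3, another TFIIH subunit, was at 22.9, 15.2 and 22.3 FPKM, and the TFIIH helicase gene ERCC2 was at 26.6, 18.9 and 23.9 FPKM. POLR2A, the catalytic subunit of RNA polymerase II whose tail CDK7 phosphorylates, was at 37.6, 116 and 47.4 FPKM, a ratio of -1.28. The other 11 polymerase subunits stayed within 1.5-fold between the doses. POLR2A was therefore 1 of the genes that went up at the low dose and fell back.

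The list of P-TEFb, its 7SK inhibitors and the super elongation complex had the lowest median of the 56 lists. It joins factors that release paused polymerase with inhibitors that hold P-TEFb back. Of the 15 measured genes 6 (40.0% against 7.72% of all members) were at least 2-fold lower at 200 nM, 10 (66.7% against 18.5%) were at least 1.5-fold lower, and the median was -0.93 against -0.01 over all members, whereas the median of 50 nM over DMSO was 0.15. CCNT1, the main cyclin of P-TEFb, was at 12.1, 17.3 and 3.12 FPKM, a ratio of -2.15. CCNT2, its relative, was at 10.97, 18.7 and 8.19 FPKM, and the elongation factors AFF1 and EAF1 had ratios of -1.40 and -1.21. In these 4 genes the value was above DMSO at the low dose and below it at the high dose. HEXIM1, the inhibitor that holds P-TEFb with 7SK RNA, was at 4.53, 10.1 and 4.83 FPKM.

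Mediator, which bridges activators and polymerase, had 5 of 27 genes (18.5% against 7.72% of all members) at least 2-fold lower and a median of -0.40. Beside MED26 these included MED13, of the kinase module, at 12.4, 19.1 and 7.27 FPKM, and MED17, of the head, at 42.2, 22.2 and 10.1 FPKM. MED30 was at 9.51, 13.3 and 6.07 FPKM. Among TFIID subunits and general transcription factors 5 of 21 (23.8%) were at least 2-fold lower, with a median of -0.27. GTF2B, which sets the polymerase at the start site, was at 25.6, 31.7 and 9.11 FPKM, a ratio of -1.69, and TAF7 was at 48.4, 42.6 and 20.6 FPKM. Of the other transcription kinases and cyclins 3 of 11 (27.3%) were lower, with a median of -0.32. CDK13 was at 11.5, 11.6 and 3.52 FPKM, CDK8 was at 13.5, 11.9 and 4.82 FPKM, and CCNL1 was at 23.6, 44.1 and 21.0 FPKM. In SKNMC CCNL1 was at 51.6 FPKM at 50 nM and 51.4 FPKM at 200 nM.

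RNA processing genes were examined in 6 lists, between which no difference was tested. In mRNA 3' end processing 5 of 19 (26.3% against 7.72% of all members) were at least 2-fold lower, with a median of -0.36, and 3 of the 19 belonged to the genes that fell back, against 1.36% of the members. RBBP6, a cleavage factor, was at 28.1, 70.0 and 22.5 FPKM, a ratio of -1.59, and PCF11, which couples cleavage to termination, was at 10.8, 19.3 and 8.32 FPKM. Among SR proteins and CLK kinases 2 of 16 (12.5%) were lower. The splicing factor SRSF4 was at 40.6, 36.5 and 10.8 FPKM and the kinase CLK1, which phosphorylates SR proteins, was at 20 FPKM with DMSO and at 34.1 and 10.8 FPKM at the doses. The hnRNPs, a related class of RNA-binding proteins, had 0 of 15 lower and a median of 0.10. HNRNPF, at 138, 102 and 71.0 FPKM, had the largest change of that class. Of the nuclear pore and export genes 4 of 31 (12.9%) were lower, among them the export receptor NXF1 at 36.9, 85.8 and 33.8 FPKM and its partner NXT1 at 24.1, 14.9 and 4.702 FPKM. Of the mRNA decay genes 3 of 30 (10.0%) were lower, among them CNOT4 at 7.14, 11.4 and 3.10 FPKM and CNOT8 at 27.4, 23.3 and 8.34 FPKM, both of the deadenylase complex. The Integrator genes, which process small nuclear RNAs, had 0 of 14 at least 2-fold lower and a median of 0.15, but had been lower already at 50 nM, with a median of -0.73 against DMSO. INTS8 was at 26.2, 14.4 and 20.2 FPKM.

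**Figure D3:**
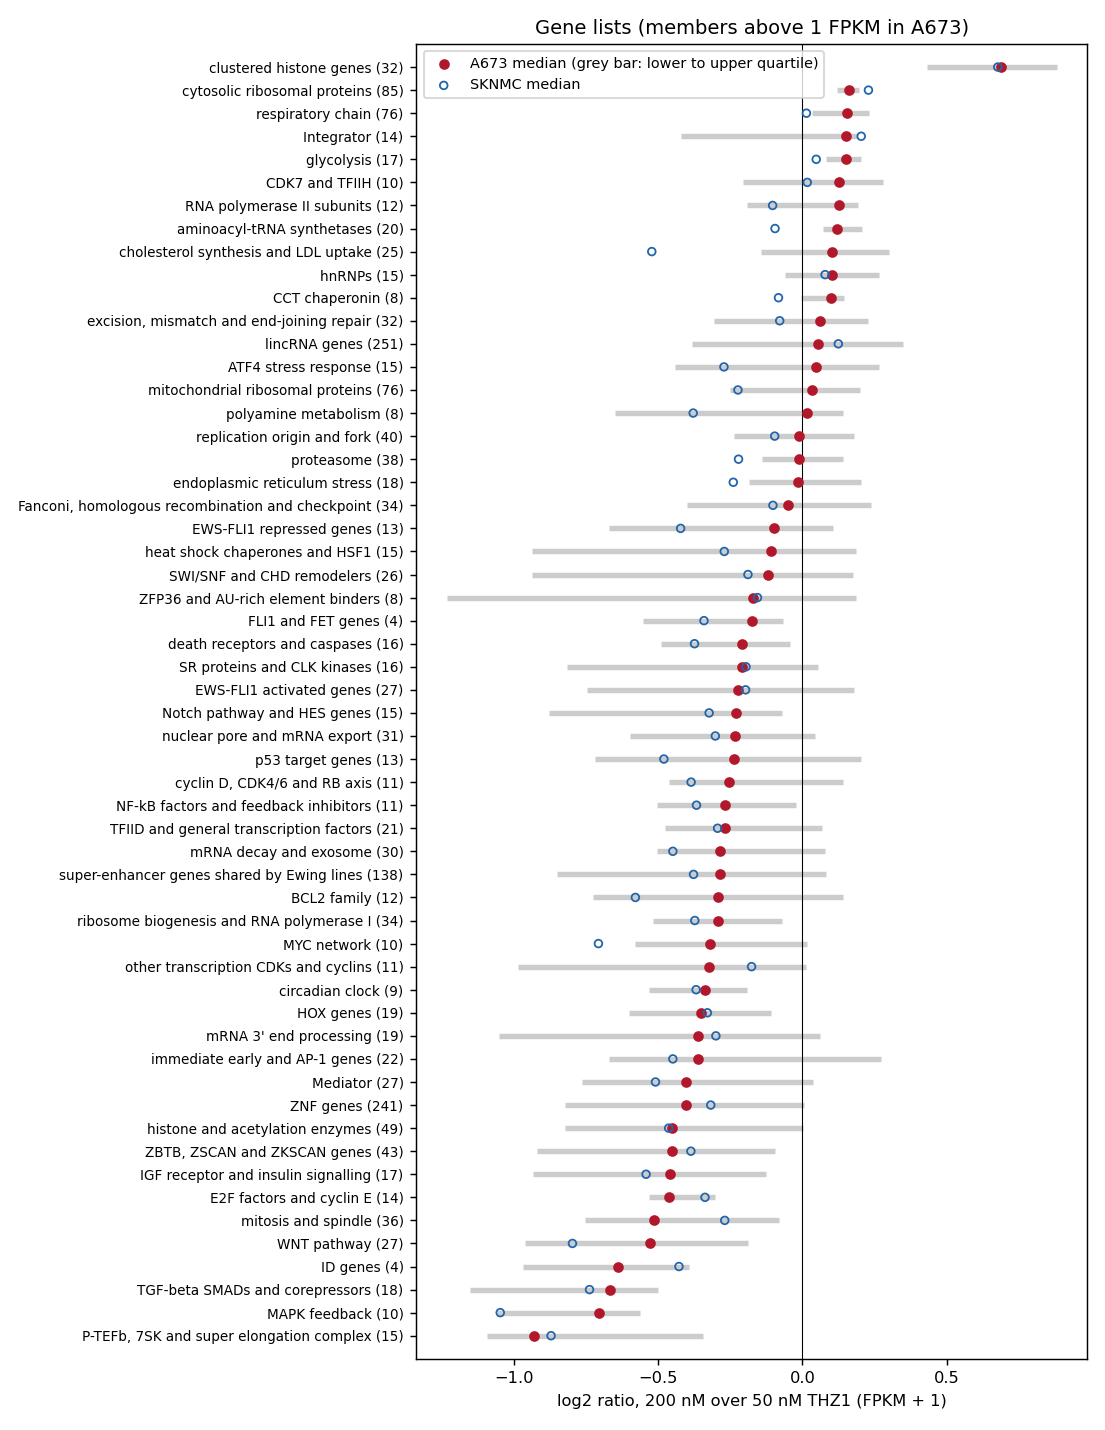
Median log2 ratio of 200 nM over 50 nM THZ1 for each of the 56 gene lists in A673 (filled points, with a grey bar from the lower to the upper quartile of the genes) and in SKNMC (open points); the number of A673 members stands in brackets. The list of P-TEFb, 7SK and super elongation complex genes lies lowest at -0.93 and the clustered histone genes lie highest at 0.69.

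The transcripts that define Ewing sarcoma did not share 1 course over the doses. Of 27 genes activated by EWS-FLI1, 2 needed the high dose and 4 were low already at 50 nM, against 2.73% and 14.0% of all members. In the recovered, stayed-up and fallen-back classes there were 0 of them. FLI1, the ETS gene that supplies the DNA-binding part of the fusion, was at 31.5 FPKM with DMSO, 14.96 FPKM at 50 nM and 4.26 FPKM at 200 nM, a ratio of -1.60. EWSR1, the other fusion partner, was at 134, 132 and 115 FPKM, a ratio of -0.20. FLI1 was thus lower at each dose step, and EWSR1 stayed within 1.5-fold. A value per gene does not separate the fusion from the intact genes. Of 27 genes activated by EWS-FLI1, 6 (22.2% against 7.72% of all members) were at least 2-fold lower at 200 nM and the median was -0.22. SOX2, a stem cell transcription factor, was at 16.3, 10.6 and 2.60 FPKM, a ratio of -1.69, and HOXD13 was at 43.2, 20.3 and 7.74 FPKM. NKX2-2, a homeobox factor used as a marker, was at 14.8, 9.71 and 3.60 FPKM, a ratio of -1.22. RCOR1, a corepressor, was at 39.7, 42.7 and 18.1 FPKM. SLCO5A1 was at 32.4, 27.9 and 12.9 FPKM.

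Other Ewing genes spanned a range of ratios. CCND1, cyclin D1, was at 711, 461 and 505 FPKM, a ratio of 0.13. STEAP1, a surface metalloreductase, was at 175, 115 and 104 FPKM. MEIS1, the homeobox gene at the centre of the study, was at 9.72, 2.29 and 1.82 FPKM, a ratio of -0.22. APCDD1, a WNT inhibitor, was at 173, 65.4 and 56.2 FPKM. For MEIS1 and APCDD1 most of the difference from DMSO was thus present at the low dose. MYC was at 101, 90.9 and 54.5 FPKM, a ratio of -0.73, and in SKNMC at 167 FPKM at 50 nM and 76.8 FPKM at 200 nM. BCL11B was at 9.15, 5.32 and 3.64 FPKM, IGF2BP1 at 44.2, 51.2 and 38.6 FPKM, and SOX5 at 0.986, 1.30 and 1.70 FPKM. Of 13 genes repressed by EWS-FLI1 3 (23.1% against 7.72%) were at least 2-fold lower, with a median of -0.10, and NR2F2, a nuclear receptor, was at 57.7, 33.8 and 9.32 FPKM while TGFBR2, a TGF-beta receptor, was at 19.2, 17.6 and 7.44 FPKM.

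The study's list of super-enhancer genes shared by Ewing lines was drawn from chromatin profiles. Of its 138 members 28 were at least 2-fold lower at 200 nM than at 50 nM, which is 20.3% against 7.72% of all members. Of the 138, 15 needed the high dose, as did 2.73% of all members, and the median was -0.29. RHOH headed the list. ARID1A, a SWI/SNF subunit, was at 20.7, 29.9 and 7.36 FPKM, a ratio of -1.88, and IRS2, an adaptor of the insulin and IGF receptors, was at 18.4, 25.4 and 6.48 FPKM, a ratio of -1.82. The genes of this list and all members differ in level and length, and the part of those in the count was not tested.

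Transcription factors and chromatin regulators followed, whose counts are read against the 7.72% of all members. Of 241 ZNF genes, mostly zinc finger repressors, 42 were at least 2-fold lower (17.4%) and the median was -0.40. ZNF217, at 12.9, 13.6 and 2.38 FPKM, and ZNF317, at 13.97, 14.6 and 3.53 FPKM, needed the high dose. Of 43 ZBTB, ZSCAN and ZKSCAN genes 9 (20.9%) were lower, with a median of -0.45, and ZBTB2 was at 18.04, 19.5 and 6.36 FPKM. Of 49 histone methylation and acetylation enzymes 7 (14.3%) were lower, with a median of -0.45. KAT6A, an acetyltransferase, was at 9.34, 10.8 and 1.95 FPKM, a ratio of -2.003. The coactivator acetyltransferases CREBBP and EP300 were at 12.6, 18.5 and 4.51 FPKM and at 11.4, 10.9 and 3.30 FPKM. These acetyltransferases were within 1.5-fold of DMSO at the low dose and more than 2-fold lower at the high dose. Of 26 SWI/SNF and CHD remodelers 6 (23.1%) were lower with a median of -0.12, among them ARID1B at 10.6, 14.7 and 5.28 FPKM and CHD8 at 18.7, 13.0 and 4.03 FPKM. Of 19 HOX genes 1 (5.26%), HOXD13, was lower. Among the 4 ID genes, inhibitors of helix-loop-helix factors, ID4 was at 57.1, 16.3 and 6.38 FPKM, ID2 was at 139, 181 and 97.9 FPKM, and the median was -0.64.

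The immediate early genes did not move together. Of 22 measured genes 4 (18.2% against 7.72% of all members) were at least 2-fold lower and 1, EGR1, was at least 2-fold higher, as 0.270% of all members were. A further 3 stayed up at both doses, as 0.828% of all members did, and the median was -0.36. BTG1, an antiproliferative gene, was at 10.3, 10.0 and 2.20 FPKM, a ratio of -1.78. CTGF, a matrix protein, was at 241, 113 and 43.8 FPKM, and KLF6 was at 43.4, 42.9 and 19.3 FPKM. The ZFP36 family and other binders of AU-rich elements govern the turnover of such messages. Of 8 such genes 3 (37.5% against 7.72%) were lower, with a median of -0.17. TIAL1 was at 81.1, 97.5 and 35.0 FPKM, ZFP36L2 was at 22.4, 12.1 and 4.07 FPKM, and ZFP36L1 was at 18.2, 27.0 and 11.3 FPKM. In the MYC network 0 of 10 genes were lower by 2-fold, with a median of -0.32, and MAX was at 33.1, 26.8 and 16.1 FPKM.

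Cell cycle genes were examined in 4 lists, between which no difference was tested. Of 36 mitosis and spindle genes 7 (19.4% against 7.72% of all members) were at least 2-fold lower at 200 nM, and the median of -0.51 followed one of -0.62 at the low dose against DMSO. AURKA, the Aurora A kinase, was at 61.2, 17.7 and 4.56 FPKM, a ratio of -1.75, while KIF23, a kinesin of cytokinesis, was at 52.99, 59.2 and 17.5 FPKM, a ratio of -1.70. AURKA was thus lower at each step and KIF23 at the second step. TTK, a checkpoint kinase, was at 35.5, 23.3 and 9.04 FPKM, and CDC25A, a phosphatase that activates CDKs, was at 20.9, 11.7 and 4.27 FPKM. Of 14 E2F and cyclin E genes only E2F3, at 29.1, 26.6 and 6.40 FPKM, was at least 2-fold lower (7.14%), and the median was -0.46. Of 11 genes of the cyclin D, CDK4/6 and RB axis 0 were lower by 2-fold. CDK4 was at 163, 140 and 182 FPKM and CDKN1B, a CDK inhibitor, was at 17.6, 12.4 and 6.38 FPKM. Of 40 replication genes 3 (7.5%) were lower, MCM10, GINS3 and RFC1, with a median of -0.01, and MCM10 was at 27.4, 14.3 and 5.32 FPKM. In SKNMC 3 of the 36 mitosis genes were at least 2-fold lower, near the 9.45% of all genes above 1 FPKM in both lines. The SKNMC medians were -0.27 for mitosis and -0.34 for E2F and cyclin E. They were -0.39 for the cyclin D axis and -0.10 for replication, against -0.16 over all genes of both lines.

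DNA repair genes showed few 2-fold differences between the doses. Of 34 Fanconi, homologous recombination and checkpoint genes 12 were at least 2-fold below DMSO at 50 nM (35.3% against 14.0% of the members), the median against DMSO was -0.65 there, and between the doses 1 of 34 (2.94% against 7.72%) was at least 2-fold lower with a median of -0.05. That gene was WEE1, a kinase that restrains entry into mitosis, at 22.6, 14.04 and 4.55 FPKM. Of 32 excision, mismatch and end-joining repair genes 4 were at least 2-fold below DMSO at 50 nM (12.5% against 14.0%), and between the doses 0 were lower by 2-fold, with a median of 0.06. MSH6, a mismatch recognition protein, was at 60.8, 40.0 and 22.0 FPKM, and OGG1, a DNA glycosylase, was at 18.2, 12.9 and 17.3 FPKM.

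Signalling genes were among those lower at the second step. Of 18 TGF-beta SMADs and corepressors 6 (33.3% against 7.72% of all members) were at least 2-fold lower, 4 needed the high dose, as did 2.73% of all members, and the median was -0.67. TGIF1, a corepressor, was at 40.2, 32.4 and 9.70 FPKM, SMAD4 was at 52.5, 38.6 and 12.2 FPKM, and SKI was at 34.0, 30.9 and 13.3 FPKM. Of 10 MAPK feedback genes 3 (30.0%) were lower, with a median of -0.71 and 0 of the 10 above 0. SPRED2, a Ras pathway inhibitor, was at 25.9, 25.9 and 9.06 FPKM, and the ERK phosphatase DUSP6 was at 91.4, 55.4 and 33.0 FPKM. Of 27 WNT genes 6 (22.2%) were lower, with a median of -0.53. The receptors FZD4 and LRP6 were at 60.0, 48.6 and 15.1 FPKM and at 15.2, 16.6 and 6.32 FPKM. Of 17 insulin and IGF pathway genes 3 (17.6%) were lower, with a median of -0.46, among them IRS2, described above. Of 15 Notch genes 3 (20%) were lower, with a median of -0.23, and the ligand JAG1 was at 15.2, 13.7 and 3.62 FPKM. Of 11 NF-kB genes and of 9 circadian genes 0 were lower by 2-fold, with medians of -0.27 and -0.34, and CRY1, a clock repressor, was at 22.0, 36.7 and 19.3 FPKM.

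Survival genes and p53 target genes had few losses of 2-fold at the second step but more of 1.5-fold. In the BCL2 family 0 of 12 genes were lower by 2-fold and 4 (33.3% against 18.5% of all members) by 1.5-fold, with a median of -0.29. MCL1, an anti-apoptotic protein with a short-lived message, was at 92.9, 49.1 and 36.8 FPKM, BCL2L1 was at 45.9, 25.6 and 13.1 FPKM, and the pro-apoptotic BAX was at 62.5, 52.5 and 68.9 FPKM. BCL2L2, described above, was 1 of the recovered genes. Of 16 death receptor and caspase genes 0 were lower by 2-fold between the doses and 4 (25% against 18.5%) by 1.5-fold. At 50 nM 8 of the 16 were at least 2-fold below DMSO, where 14.0% of all members were. Of 13 p53 target genes 1 (7.69% against 7.72% of all members) was lower by 2-fold and 4 (30.8% against 18.5%) by 1.5-fold. The median of the 13 was -0.24, and CDKN1A was at 11.5, 10.8 and 7.18 FPKM.

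The heat shock genes included 3 that went up at the low dose and fell back, of 15, against 1.36% of the members. HSPA1B, an inducible HSP70 gene, was at 7.585, 23.0 and 6.204 FPKM, a ratio of -1.74. HSPA1A, a nearly identical copy between which reads may have been split, was at 10.7, 17.4 and 6.35 FPKM, and the co-chaperone BAG3 was at 23.1, 38.2 and 10.9 FPKM. The heat shock list had 4 genes (26.7% against 7.72%) at least 2-fold lower, 5 (33.3% against 18.5%) at least 1.5-fold lower and a median of -0.11. Of 18 endoplasmic reticulum stress genes 1 (5.56% against 7.72%) was lower by 2-fold and 4 (22.2% against 18.5%) by 1.5-fold. The median of the 18 was -0.02, and MANF, a secreted chaperone-like factor, was at 30.9, 22.1 and 31.2 FPKM. In the ATF4 response 0 of 15 were lower by 2-fold, with a median of 0.05. ATF4 itself was at 256, 107 and 166 FPKM, a ratio of 0.63, and so met the rule for recovery. Of 8 polyamine genes 1 (12.5% against 7.72%) was lower. It was AMD1, which makes the aminopropyl donor, at 72.1, 60.4 and 15.6 FPKM. Of 25 cholesterol genes 2 (8% against 7.72%) were lower, near the share of all members, with a median of 0.10. SQLE, squalene epoxidase, was 1 of them at 68.7, 39.6 and 17.6 FPKM.

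Most housekeeping lists held their level or took a slightly larger share of the library at 200 nM. The list of genes that build ribosomes was an exception. Among 85 cytosolic ribosomal protein genes 0 changed by 1.5-fold and the median was 0.16, with a lower quartile of 0.12 and an upper quartile of 0.20. RPS2 was at 1485 FPKM with DMSO, 1820 FPKM at 50 nM and 2214 FPKM at 200 nM. Among 76 respiratory chain genes 0 changed by 1.5-fold, with a median of 0.15, and among 17 glycolytic genes the median was 0.15 with ENO2, an enolase, at 30.1, 29.6 and 44.8 FPKM. The 20 aminoacyl-tRNA synthetases and the 8 CCT chaperonin subunits had medians of 0.12 and 0.10 with 0 genes at 1.5-fold in either direction. Of 38 proteasome genes 0 and of 76 mitochondrial ribosomal protein genes 2 (2.63% against 7.72%) were lower by 2-fold. The medians were -0.01 and 0.03. PSMD12, a proteasome lid subunit, was at 95.7, 92.2 and 49.5 FPKM, and MRPL44 was at 26.3, 23.6 and 8.02 FPKM. Of 34 genes that build ribosomes 5 (14.7% against 7.72% of all members) were at least 2-fold lower, and the median was -0.29. NOP16 was at 53.6, 23.9 and 7.66 FPKM, NOP2, a ribosomal RNA methyltransferase, was at 59.8, 49.6 and 18.6 FPKM, and POLR1B, an RNA polymerase I subunit, was at 29.0, 14.4 and 5.13 FPKM.

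The sizes of these small medians depended on the scaling. With ribosomal protein genes held level between libraries the median over all members moved by -0.11, and when each was divided by the 75th percentile of its members it moved by 0.10. Under 1 or more of the 3 scalings tried, the median changed sign for 14 lists, namely the hnRNPs, the EWS-FLI1 repressed, replication, Fanconi, excision repair, mitochondrial ribosomal, proteasome, CCT, cholesterol, polyamine, heat shock, endoplasmic reticulum stress, ATF4 and lincRNA lists. The medians of the other 42 lists kept their sign.

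Clustered histone genes, short and mostly without introns, were the list with the highest median ratio. Of 71 listed 32 were members, and 7 of the 32 were at least 2-fold higher at 200 nM, 19 (59.4% against 2.85% of the members) were at least 1.5-fold higher, 0 were 2-fold lower, and the median was 0.69. In SKNMC the median over 18 shared members was 0.68. The levels were low: HIST1H2AG, an H2A gene, was at 0.404, 1.13 and 4.39 FPKM. HIST1H3J, an H3 gene, was at 0.0714, 0.672 and 3.23 FPKM, and so passed the filter only through the 200 nM library. Because of such members the count is not a share of all histone genes. The counts and the medians of both lines are given as a description and support nothing about the list. The 2 members above 10 FPKM were not higher, HIST1H2BK at 21.1, 31.3 and 30.9 FPKM and HIST1H2AC at 7.005, 15.3 and 9.41 FPKM. Histone genes resemble one another closely, and most of their messages lack a poly(A) tail. How reads were assigned among them and whether poly(A) RNA was selected were not stated in the sources used here.

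Of 251 lincRNA members 10 (3.98% against 7.72% of all members) were at least 2-fold lower, and 6 were at least 2-fold higher, as 0.270% of all members were. At both doses 16 stayed up, against 0.828% of the members, and the median of the 251 was 0.06. The filter used only the THZ1 libraries, so the counts of higher and stayed-up genes are given as a description. RP11-252A24.7 was at 14.01, 43.99 and 17.8 FPKM, a ratio of -1.26, and MAPKAPK5-AS1, antisense to MAPKAPK5, was at 10.3, 14.3 and 6.56 FPKM.

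The second dose step was shared between the lines. Of the 10745 members 10155 were also above 1 FPKM in a THZ1-treated SKNMC library, and of the 809 lower genes among them 806 had a ratio below 0 in SKNMC and 554 (68.5%) were at least 2-fold lower there. The background in SKNMC was 8.75% of its own 11480 genes and 9.45% of the shared genes, and 63.3% of the shared genes had a ratio below 0. Of the 21 shared higher genes all 21 had a ratio above 0 in SKNMC and 10 were at least 2-fold higher, against 0.610% of the SKNMC genes. In A673 10 of these 21 had passed the filter only through the 200 nM library, so this count supports nothing about the genes that are higher. Across the 10155 genes the ratios had a Pearson correlation of 0.80 and a Spearman correlation of 0.77, which is a description across genes, which are not independent, of values from 2 separate pairs of libraries. SKNMC is another cell line and not a replicate of A673.

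The dose classes carried over in part. Of the 285 genes that needed the high dose in A673 and were shared, 138 (48.4%) met the same rule in SKNMC, which 3.89% of the shared genes did. For the genes that fell back it was 67 of 141 (47.5% against 1.65%), and for those that stayed up 39 of 67 (58.2% against 0.995%). For recovery it was 23 of 86 (26.7% against 1%). Of the 86, 97.7% had a ratio above 0 in SKNMC, as 36.7% of the shared genes did. METTL23 was at 4.89 FPKM at 50 nM and 18.2 FPKM at 200 nM in SKNMC and PPP1R10 was at 1.57 and 6.54 FPKM, whereas RNF41 was at 4.68 and 4.87 FPKM. Each of these classes rests on ratios that share the DMSO or the 50 nM library within a line, and between the lines no library was shared. Most of the 89 genes that stayed up in A673 had become members only through libraries in which they were high. Their share in SKNMC thus supports nothing about that class.

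**Figure D4:**
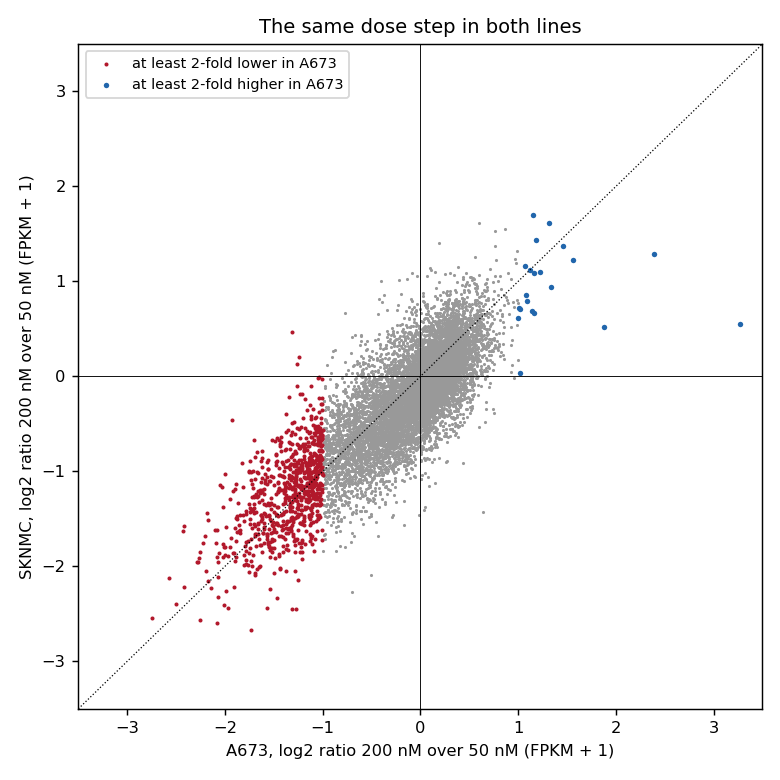
Each point is 1 of the 10155 genes above 1 FPKM in both lines under THZ1, with the log2 ratio of 200 nM over 50 nM in A673 on the x axis and in SKNMC on the y axis; the dotted line marks equal ratios. The genes lower in A673 (red) lie below 0 in SKNMC in 806 of 809 cases, and all 21 higher genes (blue) lie above 0.

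The lower genes were longer than the members as a whole. The median span from the deposited coordinates was 43.7 kb for the 830 lower genes, 53.3 kb for the 293 that needed the high dose and 51.8 kb for those that fell back, against 32.2 kb over all members. It was 18.9 kb for the 1501 genes low already at 50 nM, 15.3 kb for the recovered genes and 2.24 kb for the 29 higher genes. The longest annotated transcript, found for 98.4% of the members, had a median of 4.80 kb in the lower genes and 3.86 kb overall. Across bins of transcript length the share at least 2-fold lower went from 2.73% of 366 genes up to 1 kb to 11.3% of 2334 genes over 6 kb, and across bins of span the median ratio went from 0.16 up to 5 kb to -0.20 over 100 kb. Losses at 50 nM ran the other way among the longer genes. The share at least 2-fold below DMSO there was 18.4% up to 5 kb, 20.9% from 10 to 20 kb and 5.14% over 100 kb. Across genes the ratio had a Spearman correlation of -0.25 with span, -0.28 with transcript length and -0.06 with exon number.

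The level of a transcript moved with these shares as well. Of the 896 members over 100 FPKM at the higher of both doses 0.781% were at least 2-fold lower, against 7.30% between 20 and 100 FPKM, 12.9% between 5 and 20 FPKM and 3.79% between 1 and 5 FPKM. The added 1 and the bound set by low values press on the lowest bin. Among chromosomes with at least 100 members the share of lower genes went from 3.66% on chromosome 19, a chromosome of many short genes, to 12% on chromosome 13, and chromosome 6, which holds the largest histone cluster, had 6.28% of its genes at least 1.5-fold higher. The part of length, level and chromosome in the other counts was not tested.

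**Figure D5:**
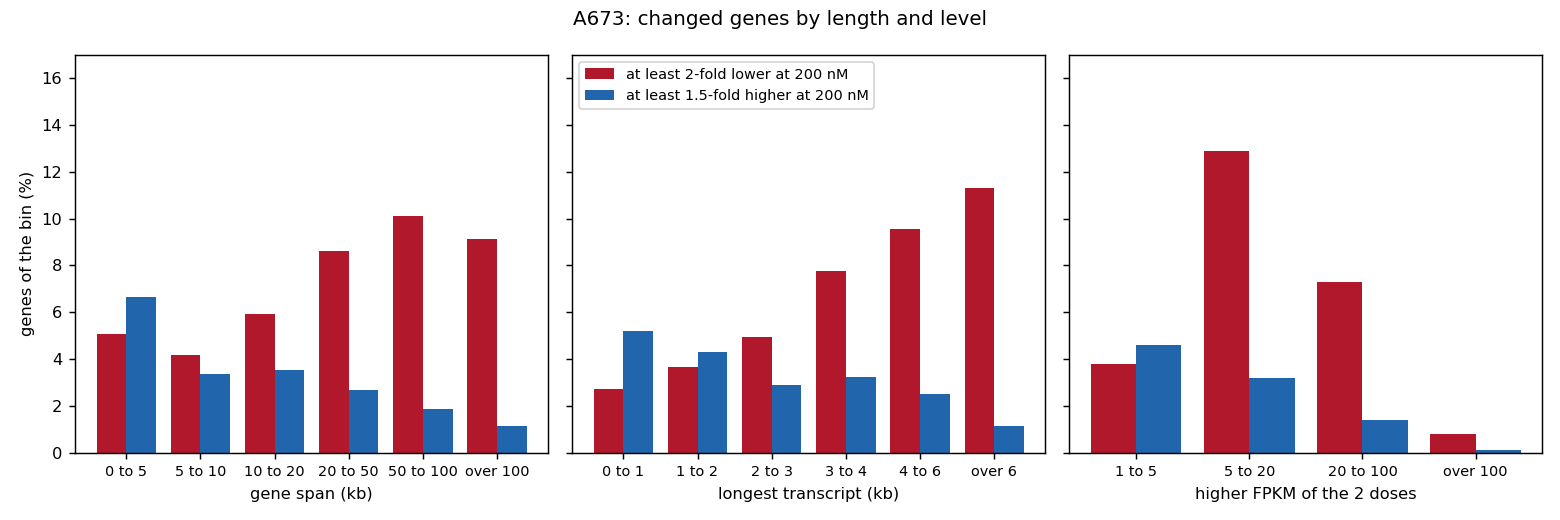
Bars give the percentage of genes in each bin that were at least 2-fold lower (red) or at least 1.5-fold higher (blue) at 200 nM than at 50 nM THZ1 in A673, by gene span, by length of the longest annotated transcript and by the higher FPKM of both doses. The lower genes go from 2.73% to 11.3% over the bins of transcript length, and of the genes over 100 FPKM 0.781% were lower.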

How the data were processed

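RNA-seq values of A673 cells at 50 nM and 200 nM THZ1 were compared, with the DMSO library and the 3 SKNMC libraries set beside them. Per the study's methods, paired reads of 100 bp from TruSeq libraries were mapped by the authors to hg19 by STAR, guided by Ensembl release 75. The deposited FPKM values were estimated with StringTie per the study's methods, while the submitters' processing notes name Cufflinks. The deposited table speaks of average expression, but the labels give 1 library per condition, which was assumed. Its 4 columns of the authors' log2 fold changes against DMSO were not used.

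For each gene log2((FPKM + 1) / (FPKM + 1)) was computed with pandas 2.3.3; the pseudocount was 1. Transcript lengths came from GENCODE release 44 mapped to GRCh37. The functions were tested on simulated data. An FPKM of 0 is reported only as listed at 0. The genes and lists were chosen with earlier results of these data known. Named were the 10 largest changes per direction and the 8 largest per class above 10 FPKM, up to 4 genes per list above 10 FPKM at either dose, and genes named in the study; 1 noncoding gene that met the rule for staying up, and a few genes picked by the list rule, are not reported here. HEXIM1, PIGY, DNAJC25-GNG10, CD99, HIST1H2AG and HIST1H3J, outside that rule, were chosen after their values were seen.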

Additional observations from a re-analysis of the deposited data

Results flagged for a closer look

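Some of the genes picked by the naming rules, and some list medians, had ratios of 200 nM over 50 nM with opposite signs in A673 and SKNMC, at least 0.1 in size (log2) in each. With 1 library per condition these differences were not tested.

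LINC00926 had a ratio of -1.24 in A673, from 11.7 to 4.39 FPKM, and of 0.20 in SKNMC, from 1.37 to 1.72 FPKM. RP11-252A24.7, also noncoding, had -1.26 in A673 and 0.14 in SKNMC. These noncoding genes were the only ones of the group whose A673 ratio passed 2-fold. HOXD10, a homeobox gene, had -0.44 in A673 and 0.19 in SKNMC, and APCDD1 had -0.22 and 0.11 in that order. MANF had 0.48 in A673 and -0.27 in SKNMC. MRPL49, a mitochondrial ribosomal protein gene, had 0.49 and -0.22. CCT6A, a chaperonin subunit, had 0.16 and -0.13, and SMS, spermine synthase, had 0.15 and -0.28.

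Among the lists, the RNA polymerase II subunits had medians of 0.13 for A673 and -0.10 for SKNMC. The cholesterol synthesis and LDL uptake genes had medians of 0.10 for A673 and -0.52 for SKNMC, and the sign of the A673 median depended on the scaling.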

How the results depend on the processing

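The depth of these libraries is unknown and 1 library stood for each condition, so neither counting error nor replicate error could be given. No paired analysis was possible because A673 had 1 library per dose; a fit over both lines with the line as a block, which would take SKNMC as a repeat of A673, was not run. The counts of genes lower at 200 nM, of genes that needed the high dose and of those low already at 50 nM stayed within 1.5 times under every pseudocount and scaling tried, and small classes moved more. With a pseudocount of 0.1 there were 135 higher, 260 recovered and 190 stayed-up genes. Above 5 FPKM there were 9 higher, 713 low already at 50 nM, 54 recovered and 35 stayed-up genes. With libraries scaled to the 75th percentile of member values there were 60 higher, 384 stayed-up and 264 fallen-back genes, and 43.1% of the members had a ratio below 0. With ribosomal protein genes held level the median was -0.11, 61.2% of ratios were below 0, and there were 15 higher, 54 recovered, 49 stayed-up and 76 fallen-back genes. With every 2-fold threshold at 1.5-fold there were 1993 lower, 306 higher, 688 that needed the high dose, 3042 low already at 50 nM and 171 recovered genes. Lower genes made up 96.6% of the called genes and from 92.3% to 98.5% under the scalings. Among the 257 named genes 168 were beyond 1.5-fold, and the alternatives could not have reversed the sign of any of them. A pseudocount or a filter leaves the sign of a gene's ratio as it is. The scalings changed the 200 nM library against the 50 nM library by factors of 0.98, 1.08 and 0.92, which is less than 1.5-fold. The kept signs thus say nothing about how stable these genes are. The 5 list medians beyond 1.5-fold also kept their sign, and the scalings were likewise too small to reverse them. The cause of the movements in the counts was not tested.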
